A study of Mus musculus with 28 samples.

Results

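The genes described here encode the proteins that hold epithelial cells together, seal the space between them or join their cytoplasm: cadherins, protocadherins, claudins and other tight junction proteins, connexins, and the plaque proteins of desmosomes. They were taken by symbol alone, whatever their values, as every cadherin, protocadherin, claudin, zonula occludens, MARVEL domain, connexin, desmocollin and desmoglein symbol of the table, together with Ocln, F11r, Jup, Dsp and the plakophilins. The symbols picked out 66 of the 13128 genes tested. They were 8 cadherins, 4 protocadherins outside the gene clusters, 30 clustered protocadherins (9 of the beta and 21 of the gamma cluster), 5 claudins, 7 other tight junction genes, 7 connexins and 5 desmosomal genes.

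Cadherins bind their like on the neighbouring cell through calcium-dependent extracellular repeats, and catenins tie their tails to actin. Claudins set which ions and molecules pass between cells, occludin and junctional adhesion molecules sit in the same strands, and zonula occludens proteins anchor the strands inside the cell. Connexins form the channels of gap junctions, and in the epididymis all of these junctions take part in the blood-epididymis barrier, which keeps the fluid around maturing sperm apart from the blood.

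RNA was sequenced from DC2, an immortalized mouse line of distal caput epididymal epithelium kept on collagen, so that every group shares 1 line and its immortalization. Once confluent, cultures were given corticosterone (500 ng/ml), a steroid that rodent adrenals make in response to stress, or the 0.1% ethanol in which it was dissolved. Exposure ended with a change of medium on day 3, and the medium was changed again on day 6. The vehicle groups are day 0 (untreated, with no ethanol yet), day 3, day 6 and day 9, and the corticosterone groups are day 3 (end of exposure), day 6 (3 days of recovery) and day 9 (6 days of recovery), 4 libraries in each of the 7 groups. The labels do not say that the 4 libraries of a group were separate cultures, so the p-values measure the spread between these libraries, which may be technical.

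The labelled cell type was checked against markers. The epithelial keratin gene Krt18 stood at 3.63 to 5.32 log2 CPM (the log2 of the reads of a gene scaled to a common library size) and the epididymal transcription factor genes Pax2 and Pax8 at 5.96 to 6.55 and 6.62 to 7.38 over all libraries, while Epcam, a defining epithelial surface gene, was between -2.18 and 1.80. Of the 15 epididymal markers 3 were measured, and of the basal, clear and narrow cell markers 0 of 7; the rest were not analysed here. Epithelial markers (6 of 7 measured, Cdh1 among them) summed to 25.2 to 34.2 CPM with corticosterone and 31.3 to 34.9 with vehicle at day 3, and to 25.6 to 27.1 and 37.7 to 39.8 at day 6, the days on which most cadherins fell. At day 6 Krt18 (3.63 to 3.81 log2 CPM against 4.37 to 4.49 with vehicle) and Cdh1 were lower with corticosterone. Krt7 (1.91 to 2.43 against 0.02 to 0.37) and Krt8 (1.28 to 1.92 against -0.03 to 0.72) were higher, and Epcam and Krt19 overlapped. At day 3 Cdh1 was lower, Krt7 was higher (1.57 to 1.86 against -0.07 to 1.15), and the other measured genes overlapped. Fibroblast markers (5 of 7 measured) summed to 113 to 134 CPM with corticosterone and 60.9 to 65.4 with vehicle at day 3. Their sum followed Dcn (6.3005 to 6.68 log2 CPM against 3.56 to 3.85), while Pdgfrb (4.68 to 4.73 against 5.28 to 5.33), Col1a1 (1.29 to 2.10 against 2.90 to 3.302) and Col1a2 (-3.04 to -2.35 against -2.33 to -0.04) were lower with corticosterone. Leukocyte markers (Cd68 and Csf1r, 2 of 6) summed to 7.88 to 11.3 CPM with corticosterone and 28.4 to 29.6 with vehicle at day 3, and endothelial markers (Pecam1 and Kdr, 2 of 5) to 7.15 to 9.71 and 1.43 to 2.60. The part of these shifts in the results was not tested, and in bulk RNA fewer cells of a type and less RNA per cell cannot be told apart. Corticosterone day 3 replicate 4 stood apart, with a root mean square log2 difference of 0.520 from the other 3 libraries of its group, against 0.249 to 0.366 in the other 27 libraries. Counts at day 3 of all 66 genes, cadherins, other tight junction genes and clustered protocadherins are given with and without it. So are the counts of differences between day 3 and later days. The day 3 counts of claudins, connexins and desmosomal genes were the same without it. Those of the partner genes examined further below were not made without it.

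More junction genes were lower than higher with corticosterone at day 3 and day 6, and as many were lower as higher at day 9. At day 3, 23 of the 66 genes fell and 6 rose with corticosterone against vehicle (limma, Benjamini-Hochberg adjusted p under 0.05), where 25.6% of all genes tested fell and 23.3% rose. At day 6, 24 fell and 8 rose, against 24.3% and 22.9% of all genes. At day 9, 11 fell and 11 rose, against 14.4% and 14.1%. The median log2 change of the 66 genes was -0.29 at day 3, -0.15 at day 6 and 0.05 at day 9, beside medians of -0.01, 0.00 and 0.00 over all genes tested; a log2 change of 1 is a 2-fold change. Without corticosterone day 3 replicate 4 the median at day 3 was -0.14, with 21 genes lower, 20 of them among the 23, and 7 higher.

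Counted in either direction, 43.9% of the 66 genes were called at day 3, 48.5% at day 6 and 33.3% at day 9, beside 49%, 47.2% and 28.5% of all genes. Without regard to the test, all 4 treated libraries lay below all 4 vehicle libraries for 22 of the 66 genes and above them for 5 at day 3, against 19.7% and 18.8% of all genes. With the 3 treated libraries other than replicate 4 these counts were 24 and 8 (26.7% and 23.9%). At day 6 they were 24 and 10 over all libraries (24.5% and 23.8%), and at day 9 15 and 17 (16.3% and 16.6%).

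Changes of at least 2-fold were seen in 6 genes that fell (Cdh6, Cldn2, Cdh17, Pkp1, Cdh1 and Cdh3) and 3 that rose (Cldn1, Gja1 and Pcdh9) at day 3, when 3.26% and 3.64% of all genes passed that rule. Without corticosterone day 3 replicate 4 the same genes passed, joined by Gja5 (1.02) among those that rose. Pcdhgc4 (-1.34, adjusted p = 0.0261) joined those that fell, and was at -0.47 with all libraries (adjusted p = 0.559). Of all genes, 3.52% rose and 3.15% fell by that rule without this library. At day 6 they were 4 that fell (Pkp1, Cldn2, Cdh6 and Cdh1) and 3 that rose (Pcdh9, Gja5 and Cldn1), against 4.18% and 3.36%. At day 9 they were 3 that fell (Pkp1 and Tjp3 among them) and 2 that rose (Pcdh18 and Cdh17), against 1.32% and 0.937%. Values below are means or single libraries in log2 CPM, changes are log2 changes ± SE with n = 4 libraries per group, and each adjusted p is limma's, over all genes tested. Counts of each subgroup below stand beside the shares of all genes that fell and rose. These were 25.6% and 23.3% at day 3, 24.3% and 22.9% at day 6, and 14.4% and 14.1% at day 9.

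**Figure D1:**
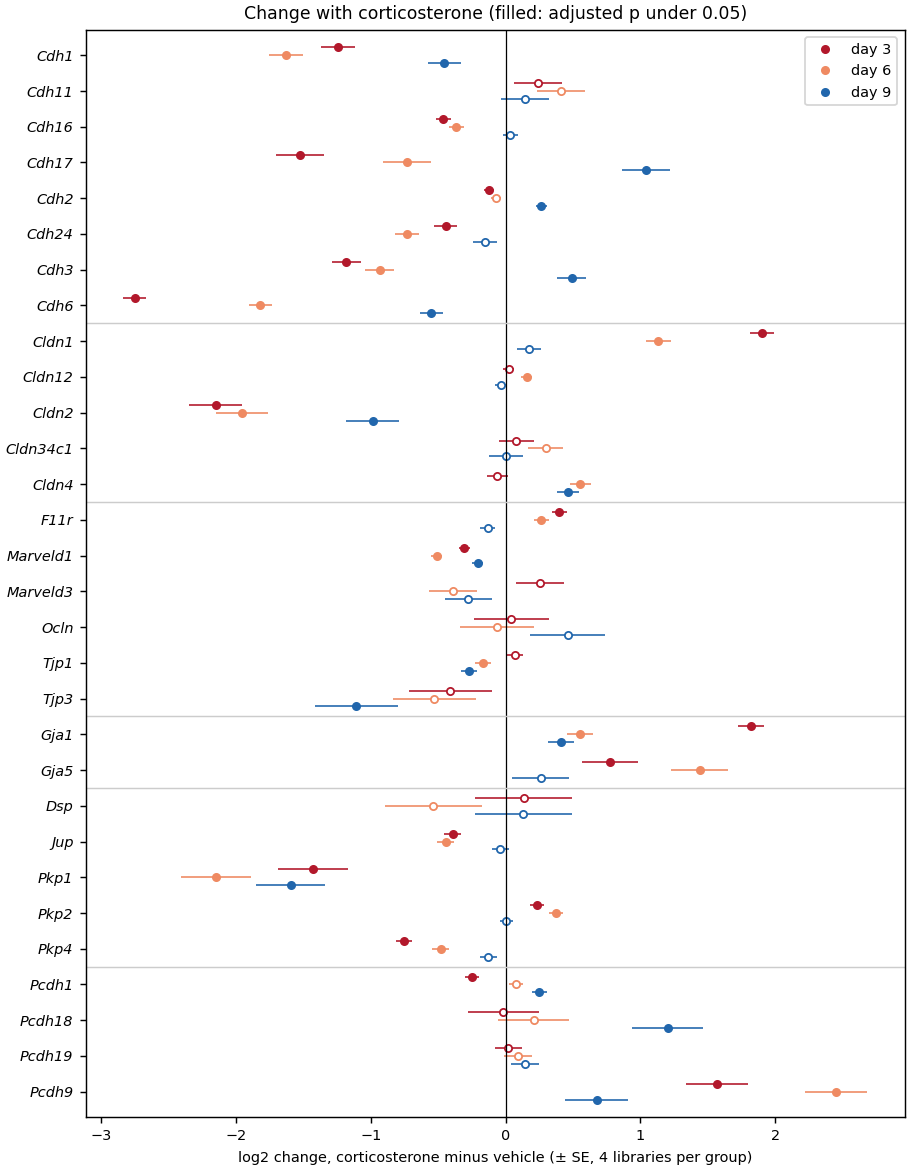
Log2 change (corticosterone minus vehicle, ± SE, 4 libraries per group) of 30 of the 36 junction genes outside the protocadherin clusters at day 3 (dark red), day 6 (orange) and day 9 (blue), grouped as cadherins, claudins, other tight junction genes, connexins, desmosomal genes and protocadherins. Filled points passed adjusted p under 0.05; apart from Cdh11, whose points are open, the cadherin points lie left of 0 at days 3 and 6, and Cdh6 moves from -2.75 at day 3 to -0.55 at day 9.

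The genes with the 2 largest falls and the 2 largest rises of the set at day 3 were Cdh6, Cldn2, Cldn1 and Gja1. Cdh6 lies on chromosome 15 at 13028701 to 13173675 on the minus strand, Cldn2 on chromosome X at 139800828 to 139811386 on the plus strand, Cldn1 on chromosome 16 at 26356642 to 26371841 on the minus strand and Gja1 on chromosome 10 at 56377330 to 56402513 on the plus strand (GENCODE M21, GRCm38, which is mm10). The 250 bases before the RefSeq start of each (GRCm38.p6) are shown 5′ to 3′ because corticosterone acts through the glucocorticoid receptor, whose half-site AGAACA, read as TGTTCT on the other strand, is marked in capitals; they span chr15:13173676-13173925, chrX:139800558-139800807, chr16:26371840-26372089 and chr10:56377050-56377299.
Cdh6: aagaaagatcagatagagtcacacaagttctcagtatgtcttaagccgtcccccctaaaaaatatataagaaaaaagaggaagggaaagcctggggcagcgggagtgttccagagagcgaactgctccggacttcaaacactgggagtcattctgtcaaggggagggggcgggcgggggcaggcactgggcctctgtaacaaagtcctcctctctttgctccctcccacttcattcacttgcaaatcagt
Cldn2: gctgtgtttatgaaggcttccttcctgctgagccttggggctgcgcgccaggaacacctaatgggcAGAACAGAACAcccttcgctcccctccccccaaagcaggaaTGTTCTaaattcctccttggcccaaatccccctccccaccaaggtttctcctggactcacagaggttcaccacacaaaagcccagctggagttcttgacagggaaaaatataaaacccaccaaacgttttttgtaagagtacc
Cldn1: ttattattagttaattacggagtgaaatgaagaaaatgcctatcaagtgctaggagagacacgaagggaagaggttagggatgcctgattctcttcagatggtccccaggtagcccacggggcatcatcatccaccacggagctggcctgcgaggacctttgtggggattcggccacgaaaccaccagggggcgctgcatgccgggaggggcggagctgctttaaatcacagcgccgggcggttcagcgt
Gja1: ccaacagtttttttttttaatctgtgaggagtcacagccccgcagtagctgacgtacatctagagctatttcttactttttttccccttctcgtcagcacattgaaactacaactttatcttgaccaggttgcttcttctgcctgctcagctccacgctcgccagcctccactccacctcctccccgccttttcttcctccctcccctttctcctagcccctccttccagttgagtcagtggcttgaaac
The Cldn2 window held 3 half-sites, 2 of them overlapping, at positions -184, -179 and -143 from the start, and the other 3 windows held 0. Of 32851 such windows in RefSeq, 16.1% held a half-site on either strand. Among the 21 junction genes for which a window was available (27 windows, some genes having several starts), Cldn2 alone had a half-site. That was 1 of the 27 windows. The clustered protocadherins, Cdh2 and Pcdh1 were not looked up, and no window was available for Cdh1. Cdh1 was therefore searched neither for the half-site nor for the letters that follow. The full palindrome, AGAACA followed by TGTTCT with 3 bases between, was in 0 of the 27 and 0.00913% of all windows. A looser form, GNACA followed by TGTNC at the same spacing, was in 0 and 0.387%. The E-box CAGGTG, read as CACCTG on the other strand, holds the letters that Snail family repressors read. It was in 6 of the 27 windows and in 17.2% of all windows. These 6 belonged to 5 of the 21 genes (Cldn4, F11r, Ocln, Pkp4 and Tjp3). These are matches of letters in short windows and not measured binding.

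Cadherins had the highest share of calls among the subgroups at day 3: 7 of 8 fell and 0 rose, with a median change of -0.82, and the same 7 fell without corticosterone day 3 replicate 4. At day 6, 6 of 8 fell, and at day 9, 2 fell and 3 rose. Cdh6 encodes K-cadherin, a type II cadherin of kidney and other duct epithelia. It stood at 6.96, 6.92, 6.87 and 6.98 log2 CPM in the vehicle libraries of day 3 and at 4.30, 3.95, 4.28 and 4.20 with corticosterone, groups far apart. The change was -2.75 ± 0.09 (adjusted p = 1.29e-18). At day 6 the treated libraries were at 5.08, 5.15, 5.25 and 5.66 against 7.05 to 7.15 (-1.82 ± 0.09, adjusted p = 2.73e-15). At day 9 they were at 6.31, 6.34, 6.34 and 6.38 against 6.84 to 6.94 (-0.55 ± 0.09, adjusted p = 2e-05). The treated libraries of day 3 and day 6 all lay below the day 0 libraries (5.91 to 6.14), those of day 9 above them, and the 3 treated groups climbed in the order of the days without overlap.

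Cdh1 encodes E-cadherin, the classical cadherin of epithelial adherens junctions (chromosome 8, 106603351 to 106670246, plus strand). In vehicle it climbed with time in culture, from 1.55 to 2.08 at day 0 to 2.70 to 3.06 at day 3, 3.66 to 3.78 at day 6 and 3.74 to 4.00 at day 9, a rise of 2.05 ± 0.13 from day 0 to day 9 (adjusted p = 1.09e-13). With corticosterone it was at 1.77, 1.36, 1.79 and 1.68 at day 3, values that overlap those of day 0. The treated values were 2.05, 2.05, 1.81 and 2.44 at day 6 and 3.37, 3.63, 3.23 and 3.32 at day 9. Each treated group lay wholly below vehicle of its day, by -1.24 ± 0.13 (adjusted p = 5.57e-09), -1.63 ± 0.13 (adjusted p = 3.08e-11) and -0.45 ± 0.13 (adjusted p = 0.00753).

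Cdh3, the gene of P-cadherin and the upstream neighbour of Cdh1 on chromosome 8 (106510891 to 106557297, plus strand), ran the other way in vehicle. It fell from 5.84 to 5.99 at day 0 to 4.80 to 4.99 at day 3 and 3.66 to 4.30 at day 9 (-1.90 ± 0.11 over the 9 days, adjusted p = 1.78e-14). Corticosterone took it lower at day 3, to 3.69, 3.75, 3.58 and 3.67 (-1.18 ± 0.11, adjusted p = 7.09e-10). It was still lower at day 6 (-0.93 ± 0.11, adjusted p = 4.33e-08). At day 9 the treated libraries, at 4.498, 4.64, 4.44 and 4.51, lay above all 4 vehicle libraries (0.49 ± 0.11, adjusted p = 0.000965). The change at day 9 differed from that at day 3 by 1.67 ± 0.15 (adjusted p = 2.01e-09).

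Cdh17, the gene of LI-cadherin, which lacks the catenin-binding tail of classical cadherins, also crossed from below to above vehicle. At day 3 it was at -1.25, -1.15, -1.65 and -1.09 with corticosterone and at 0.09 to 0.38 with vehicle (-1.52 ± 0.18, adjusted p = 6.71e-08). At day 9 it was at 1.12, 1.34, 1.63 and 1.43 against 0.18 to 0.62 (1.04 ± 0.18, adjusted p = 6.49e-05), the highest values of the gene in any group. The difference between these changes was 2.56 ± 0.25 (adjusted p = 8.36e-09). Cdh17 is a gene of low level, about 1 CPM, and on the log2(CPM + 1) scale its changes were -0.63 at day 3, -0.38 at day 6 and 0.67 at day 9.

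The abundant cadherins moved less. Cdh2, N-cadherin, fell in vehicle from 9.19 to 9.21 at day 0 to 7.95 to 8.15 at day 9 (-1.12 ± 0.04, adjusted p = 1.01e-18). Its change with corticosterone was -0.12 ± 0.04 on day 3 (adjusted p = 0.0107, and 0.0987 when the 2 groups were fitted alone) and -0.07 ± 0.04 on day 6 (adjusted p = 0.150). On day 9 it was 0.27 ± 0.04 (adjusted p = 8.71e-06), when the treated libraries (8.33 to 8.37) lay above vehicle. Cdh16, the gene of kidney-specific cadherin, which is also found in other ducts of the same embryonic origin, rose in vehicle from 7.96 to 8.01 at day 0 to 9.49 to 9.57 at day 3 (1.55 ± 0.05, adjusted p = 1.73e-18). With corticosterone it was at 8.97, 9.32, 8.95 and 9.02 at day 3, a change of -0.46 ± 0.05 (adjusted p = 8.76e-08). On day 6 the change was -0.37 ± 0.05 (adjusted p = 3.39e-06). At day 9 the treated and vehicle libraries overlapped (0.04 ± 0.05, adjusted p = 0.668). Of the remaining cadherin genes, Cdh24 fell at day 3 and day 6, and Cdh11 passed the test on none of the 3 days (0.24, 0.41 and 0.14).

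**Figure D2:**
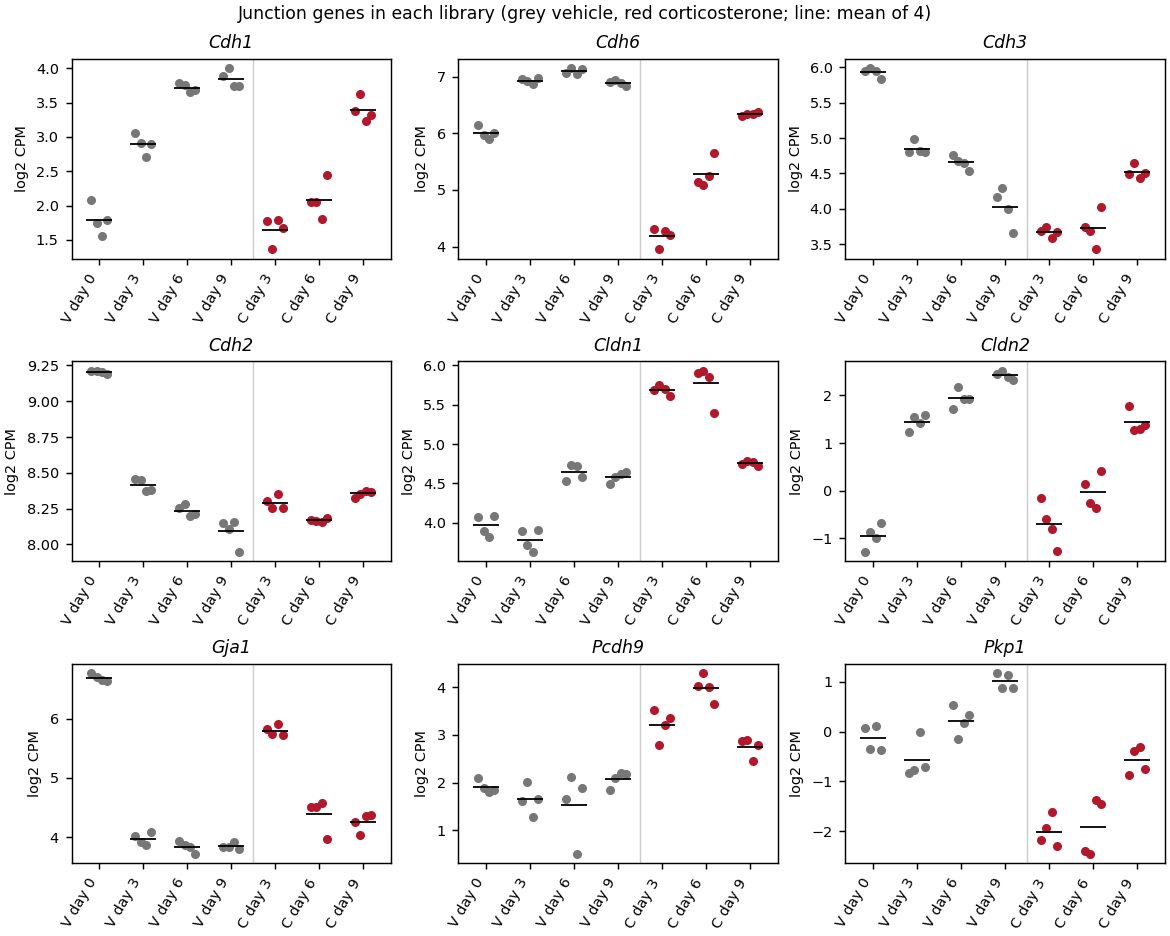
Log2 CPM of 9 junction genes in each of the 28 libraries (grey vehicle, V; red corticosterone, C; day of collection on the horizontal axis; black line, mean of 4 libraries; each panel has its own vertical scale). For Cdh6 the red points climb from 4.18 on average at day 3 to 6.34 at day 9 below the grey points near 7, while Cldn1 and Gja1 show red above grey at day 3.

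Among the claudins, 1 of 5 fell and 1 rose at day 3, 1 fell and 3 rose at day 6, and 1 fell and 1 rose at day 9, with the 2 genes of largest change going in opposite directions. Cldn1 encodes a sealing claudin of many epithelia. Its day 3 libraries stood at 3.89, 3.72, 3.63 and 3.90 with vehicle and at 5.69, 5.75, 5.70 and 5.61 with corticosterone, a rise of 1.90 ± 0.09 (adjusted p = 3.52e-15). At day 6 it was at 5.93, 5.91, 5.86 and 5.40 against 4.53 to 4.73 (1.13 ± 0.09, adjusted p = 5.99e-11). At day 9 the treated libraries, at 4.72 to 4.78, were still all above vehicle (4.49 to 4.64), but the change of 0.17 ± 0.09 was not called (adjusted p = 0.162, and 0.0295 when the 2 groups were fitted alone).

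Cldn2 encodes a claudin that forms a paracellular channel for sodium and water. It was low at day 0 (-1.28 to -0.68) and rose in vehicle at every later day, to 1.24 to 1.59, then 1.72 to 2.17, then 2.33 to 2.52, a rise of 3.38 ± 0.20 by day 9 (adjusted p = 3.79e-14). With corticosterone it was at -0.15, -0.59, -0.81 and -1.27 at day 3, values that overlap those of day 0. It was at -0.26, 0.14, -0.36 and 0.41 at day 6 and at 1.78, 1.27, 1.30 and 1.39 at day 9, when it had come into the range of day 3 vehicle or just above it. Against vehicle of the same day it was lower by -2.15 ± 0.20 (adjusted p = 8.72e-10), -1.96 ± 0.20 (adjusted p = 4.56e-09) and -0.99 ± 0.20 (adjusted p = 0.000395), with no overlap on any day. On the log2(CPM + 1) scale the first pair of changes were -1.20 and -1.27, and the rise in vehicle was 2.07.

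Cldn4, another sealing claudin, was at 5.19 to 5.62 with corticosterone and 5.37 to 5.47 with vehicle at day 3 (-0.06 ± 0.08, adjusted p = 0.553). Vehicle then returned to 4.42 to 4.53 by day 9, the range of day 0 or just below it. The treated libraries stayed above vehicle at day 6 (5.05 to 5.33 against 4.56 to 4.69; 0.55 ± 0.08, adjusted p = 1.95e-06) and at day 9 (4.71 to 5.10; 0.46 ± 0.08, adjusted p = 7.59e-05). Cldn12 was the most abundant claudin in every group, at 34.9 to 74.4 CPM per kilobase of transcript, and Cldn34c1 belongs to a family of near-identical copies on chromosome X, between which reads may be split. Cldn3, Cldn7 and Cldn10 were not analysed here.

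The other tight junction genes differed by less than 2-fold between corticosterone and vehicle, apart from Tjp3 at day 9. At day 3, 1 of 7 rose and 1 fell. Without corticosterone day 3 replicate 4, 2 rose and 1 fell, where 3059 and 3522 of the 13128 genes tested did. At day 6, 1 rose and 3 fell, and at day 9, 0 rose and 4 fell. F11r, the gene of junctional adhesion molecule A, was at 7.53, 7.65, 7.56 and 7.56 with corticosterone and 7.11 to 7.24 with vehicle at day 3 (0.40 ± 0.05, adjusted p = 1.04e-06). On day 6 it was higher by 0.27 ± 0.05 (adjusted p = 0.000234). The day 9 change of -0.13 ± 0.05 (adjusted p = 0.0717) passed the test without vehicle day 9 replicate 6 (-0.17, adjusted p = 0.0311) or corticosterone day 9 replicate 5 (-0.19, adjusted p = 0.00842).

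Tjp1 encodes the scaffold ZO-1. It lay between 6.54 and 6.98 in all 28 libraries. Its changes with corticosterone were 0.07 ± 0.06 (adjusted p = 0.362), -0.17 ± 0.06 (adjusted p = 0.0214) and -0.27 ± 0.06 (adjusted p = 0.00100) at days 3, 6 and 9. The day 6 call was lost without vehicle day 6 replicate 6 or corticosterone day 6 replicate 3 (-0.14 in both).

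Tjp3, the gene of ZO-3, and Ocln, that of occludin, were low at day 0 and rose in vehicle. Tjp3 went from -1.63, -1.56, -0.41 and -1.81 to 1.14, 0.94, 1.85 and 0.89 at day 9 (2.56 ± 0.31, adjusted p = 4.1e-08; 1.24 on the log2(CPM + 1) scale). With corticosterone Tjp3 was at 0.03, 0.04, 0.34 and -0.02 at day 9, below all vehicle libraries (-1.11 ± 0.31, adjusted p = 0.00756; -0.68 on the log2(CPM + 1) scale). The change was -0.41 ± 0.31 on day 3 (adjusted p = 0.282) and -0.53 ± 0.31 on day 6 (adjusted p = 0.164, and -0.81 with adjusted p = 0.0311 without vehicle day 6 replicate 4). Ocln rose by 1.26 ± 0.28 in vehicle over the 9 days (adjusted p = 0.000253), a call lost with quantile normalization (0.53, adjusted p = 0.0766). Its changes with corticosterone were 0.04 ± 0.28, -0.06 ± 0.28 and 0.46 ± 0.28, none called. Of the MARVEL domain genes, Marveld1 fell on all 3 days and Marveld3 was at 0.26 ± 0.18, -0.39 ± 0.18 and -0.28 ± 0.18, none called. The day 6 change of Marveld3 passed the test without corticosterone day 6 replicate 1 (-0.50, adjusted p = 0.0290). Marveld2 was not analysed here.

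Of 7 connexin genes, 2 rose and 2 fell at day 3, 2 rose and 4 fell at day 6, and 1 rose and 2 fell at day 9. Gja1 encodes connexin 43, the most widely expressed gap junction protein. It was at 6.77, 6.71, 6.65 and 6.63 at day 0 and at 4.02, 3.93, 3.87 and 4.08 at day 3 in vehicle, a fall by 2.71 on the log2 scale (SE 0.10, adjusted p = 1.82e-18), and it stayed there at day 6 and day 9. With corticosterone it stood at 5.83, 5.74, 5.90 and 5.72 at day 3, between the levels of day 0 and of vehicle (1.82 ± 0.10 above vehicle, adjusted p = 2.8e-14). At day 6 it was at 4.51, 4.51, 4.58 and 3.96, of which replicate 6, at 3.96, lay just above the highest vehicle library (3.94). The change was 0.55 ± 0.10 on day 6 and 0.41 ± 0.10 on day 9 (adjusted p = 3.05e-05 and 0.00199).

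Gja5, the gene of connexin 40, which is best known from endothelium and heart, was a low-level gene. At day 3 it was at 1.63, 0.65, 1.71 and 1.58 with corticosterone and 0.53, 0.72, 0.83 and 0.39 with vehicle (0.78 ± 0.21, adjusted p = 0.00339), where replicate 4, at 0.65, lay within the vehicle range. At day 6 it was at 2.17, 1.60, 1.92 and 1.55 against -0.07 to 0.72 (1.44 ± 0.21, adjusted p = 2.42e-06). On day 9 the change of 0.26 ± 0.21 was not called (adjusted p = 0.392). Without replicate 4 the day 3 change was 1.02 (adjusted p = 6.28e-05). Beside it, the endothelial marker Kdr was at 2.39 to 2.90 log2 CPM with corticosterone and -3.04 to -2.42 with vehicle at day 3, and at 2.22 to 3.35 and -3.69 to -1.53 at day 6, while Pecam1 overlapped between the groups (0.43 to 2.03 and 0.36 to 1.27 at day 3, 0.21 to 1.19 and 0.59 to 1.11 at day 6). The part of such cells in the Gja5 values was not tested.

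Among the 5 desmosomal genes, 3 fell and 1 rose at day 3 and at day 6, and 1 fell at day 9. Pkp1 encodes plakophilin 1, a plaque protein of stratified epithelia, and was at a low level. It stood at -2.19, -1.93, -1.62 and -2.31 with corticosterone and at -0.84, -0.76, -0.02 and -0.71 with vehicle at day 3 (-1.43 ± 0.26, adjusted p = 4.86e-05). The treated libraries were again below all of vehicle at day 6 (-2.15 ± 0.26, adjusted p = 1.09e-07) and at day 9, when they stood at -0.87, -0.38, -0.31 and -0.76 against 0.87 to 1.18 (-1.60 ± 0.26, adjusted p = 3.53e-05). On the log2(CPM + 1) scale these changes were -0.42, -0.77 and -0.85. The difference between the changes of day 9 and day 3 was -0.16 ± 0.37 (adjusted p = 0.758).

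Pkp4, an armadillo protein of adherens junctions and desmosomes, was at 6.29, 6.23, 6.37 and 6.07 with corticosterone and 6.91 to 7.05 with vehicle at day 3 (-0.75 ± 0.06, adjusted p = 1.1e-10). The later changes were -0.48 ± 0.06 on day 6 (adjusted p = 2.87e-07) and -0.13 ± 0.06 on day 9 (adjusted p = 0.128). Jup, the gene of plakoglobin, which serves both desmosomes and adherens junctions, was lower by -0.39 ± 0.06 (adjusted p = 1.16e-05) and -0.44 ± 0.06 (adjusted p = 1.62e-06) at days 3 and 6. It overlapped vehicle at day 9 (-0.04 ± 0.06, adjusted p = 0.705). Pkp2 was the one that rose, by 0.23 ± 0.05 (adjusted p = 0.000483) and 0.37 ± 0.05 (adjusted p = 9.18e-07), and was at 0.01 ± 0.05 at day 9. Dsp, desmoplakin, was variable (0.44 to 1.82 among the 4 treated libraries of day 3) and its changes with corticosterone, 0.13 ± 0.36, -0.54 ± 0.36 and 0.13 ± 0.36, were not called. It rose in vehicle by 1.35 ± 0.36 over the 9 days (adjusted p = 0.00170). Desmocollins and desmogleins, the desmosomal cadherins, were not analysed here.

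**Figure D3:**
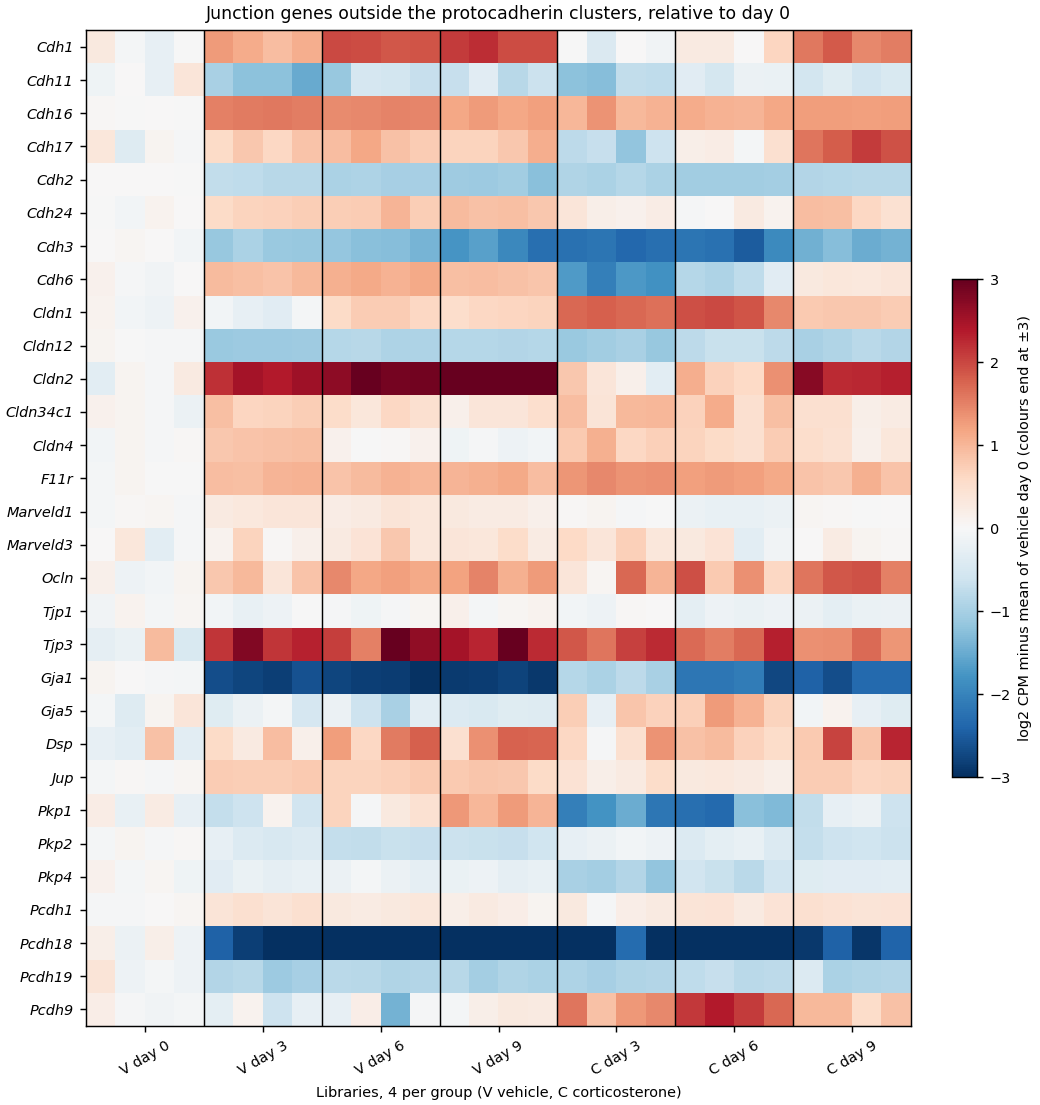
Log2 CPM of 30 of the 36 junction genes outside the protocadherin clusters in each library, minus the mean of the 4 vehicle day 0 libraries (rows, genes; columns, libraries by group; red above and blue below day 0, colours end at 3 either way). Cldn2 and Tjp3 are red in vehicle at days 3 to 9 and Gja1 and Pcdh18 blue; in the corticosterone day 3 columns Cldn2 and Cdh1 are pale, near day 0, while Cldn1 and Pcdh9 are red.

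Protocadherins outside the clusters are single genes whose proteins give weaker adhesion than classical cadherins and are best known from the nervous system. Pcdh9 had the largest rise of the set at day 6. It was at 3.52, 2.79, 3.21 and 3.35 with corticosterone and at 1.62, 2.02, 1.29 and 1.66 with vehicle at day 3 (1.57 ± 0.23, adjusted p = 3.18e-06). At day 6 it was at 4.30, 4.02, 4.00 and 3.64 against 1.66, 2.12, 0.50 and 1.88 (2.45 ± 0.23, adjusted p = 1.58e-09). At day 9 it was at 2.87, 2.89, 2.46 and 2.79 against 1.84 to 2.20 (0.68 ± 0.23, adjusted p = 0.0299). All treated libraries lay above vehicle on each day. The day 9 call was lost without any 1 of 5 libraries: vehicle day 9 replicate 3 (0.60, adjusted p = 0.0889) or 4 (0.68, adjusted p = 0.0539), or corticosterone day 9 replicate 3 (0.64, adjusted p = 0.0724), 4 (0.63, adjusted p = 0.0731) or 6 (0.66, adjusted p = 0.0620).

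Pcdh18 had the largest fall of the set in vehicle, from 4.66, 4.29, 4.64 and 4.31 at day 0 to 0.72, 0.69, 0.80 and 0.24 at day 9 (-3.86 ± 0.26, adjusted p = 1.05e-12). At day 3 the corticosterone (0.71 to 2.17) and vehicle (0.58 to 2.05) libraries overlapped (-0.02 ± 0.26, adjusted p = 0.964), as they did at day 6 (0.21 ± 0.26, adjusted p = 0.549). At day 9 the treated libraries, at 1.58, 2.06, 1.55 and 2.06, were all above vehicle (1.20 ± 0.26, adjusted p = 0.00109), and this change differed from that of day 3 by 1.22 ± 0.37 (adjusted p = 0.0115). Pcdh1 changed by -0.25 ± 0.05 on day 3 and 0.25 ± 0.05 on day 9 (adjusted p = 0.000481 and 0.00105). Pcdh19 was called on none of the 3 days (0.02, 0.09 and 0.14).

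The 30 clustered protocadherins lie side by side on chromosome 18. Genes of the beta cluster have a single exon, while those of the gamma cluster each have a variable first exon and share the same 3′ constant exons. Reads from the shared exons or from near-identical stretches cannot be given to 1 gene with certainty, so that values of single members are uncertain. In vehicle 9 of 9 beta genes rose from day 0 to day 9 with a median change of 1.42. In the gamma cluster 8 of 21 genes rose and 1 fell, with a median of 0.24. Over all genes tested 35.9% rose and 34.6% fell with a median of 0.02. Pcdhb18 stood at -0.85, -0.68, -0.56 and 0.02 at day 0 and at 1.32, 1.66, 1.55 and 1.79 at day 9, with no overlap (2.10 ± 0.18, adjusted p = 1.39e-10). The beta genes Pcdhb16, Pcdhb17, Pcdhb19, Pcdhb20, Pcdhb21 and Pcdhb22 rose by 1.17 ± 0.14, 1.42 ± 0.09, 1.81 ± 0.15, 1.95 ± 0.15, 1.41 ± 0.19 and 1.59 ± 0.09. Most of the rise was there at day 3, when Pcdhb18 was already at 1.67 to 1.79.

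The gamma genes that rose at least 2-fold were Pcdhga4 (1.25 ± 0.14), Pcdhga6 (1.63 ± 0.15), Pcdhga7 (1.36 ± 0.13) and Pcdhgb1 (1.19 ± 0.27), which lie on the side of the gamma cluster nearer the beta genes. Pcdhga2 and Pcdhga3, nearer still to the beta genes, were not among them. Nor were Pcdhgb2 and Pcdhga5, which lie between Pcdhga4 and Pcdhga6. On the log2(CPM + 1) scale the rises of the low-level Pcdhb18, Pcdhb19, Pcdhb20, Pcdhb21, Pcdhga6 and Pcdhgb1 were 1.23, 1.19, 1.06, 0.78, 1.08 and 0.71. With quantile normalization those of Pcdhb16, Pcdhb21, Pcdhga4 and Pcdhgb1 were 0.77, 0.88, 0.82 and 0.69, all still called. Pcdhgb8, a polymorphic pseudogene in the annotation, was between -4.15, the lowest value of the table, and 0.86, and was not called in any comparison of corticosterone with vehicle.

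**Figure D4:**
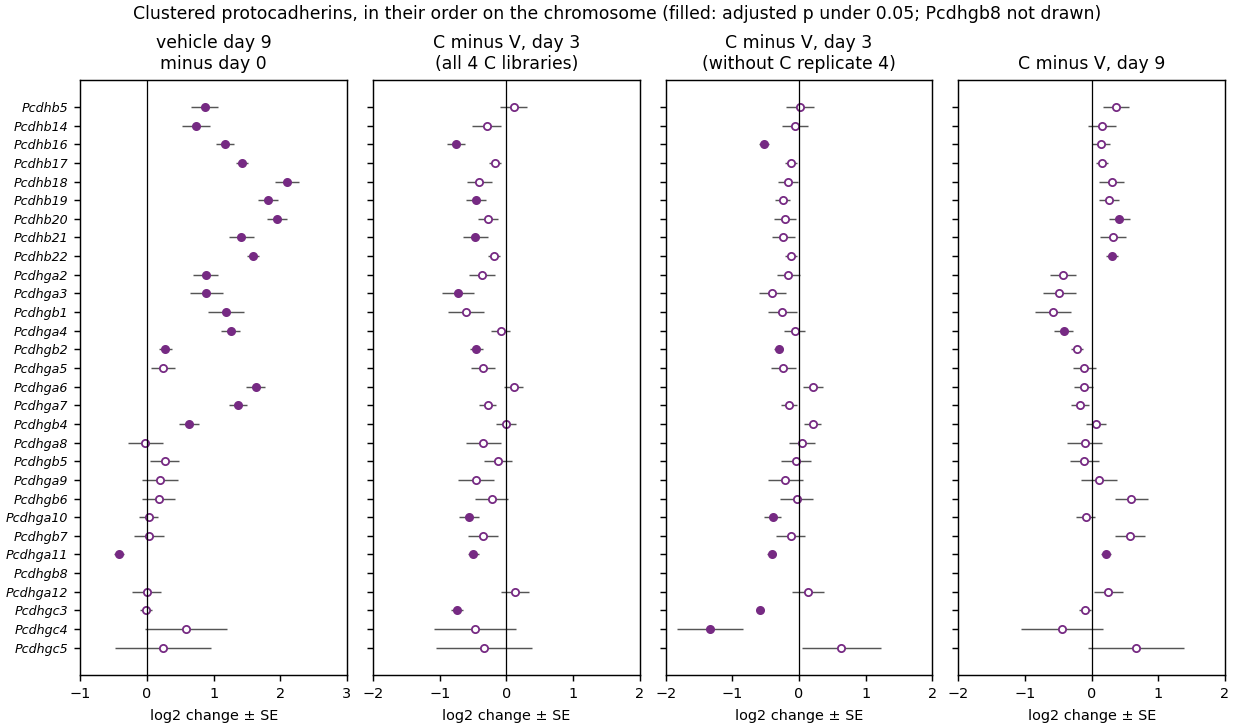
Log2 change ± SE of the clustered protocadherins in chromosome order (top to bottom, beta then gamma) for vehicle day 9 minus day 0, corticosterone (C) minus vehicle (V) at day 3 with all libraries and without C replicate 4, and C minus V at day 9. Filled points passed adjusted p under 0.05: in the first panel all 9 beta genes are filled and right of 0, up to 2.10 for Pcdhb18, and the filled points of the day 3 panels go from 8 to 6 when replicate 4 is left out.

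With corticosterone, 8 of the 30 clustered genes fell at day 3 (3 beta, 5 gamma) and 0 rose, with a median change of -0.35. Over all genes tested 25.6% fell and 23.3% rose, so the share of clustered genes that fell was near that of all genes. Corticosterone day 3 replicate 4 was the lowest of its 4 libraries for 25 of the 30 genes (83.3%), against 36.9% of all genes tested. Without it 6 fell, 5 of them among the 8, and the median was -0.16. Pcdhb16 was at 2.66, 1.63, 2.47 and 2.56 with corticosterone, the second value being replicate 4, and 3.00 to 3.20 with vehicle (-0.76 ± 0.14, adjusted p = 4.2e-05), so all treated libraries lay below vehicle, and the change was -0.52 without replicate 4 (adjusted p = 3.29e-06). Pcdhb19 fell by -0.46 ± 0.15 (adjusted p = 0.0113), a call lost without replicate 4 (-0.25, adjusted p = 0.0685) and when the 2 groups were fitted alone (adjusted p = 0.124). Pcdhb21, at -0.46 ± 0.19 (adjusted p = 0.0471), was lost in 8 of 15 alternatives, among them the fit with the replicate number as a block (-0.45, adjusted p = 0.0559) and the fits without treated replicate 1 (-0.46) or 4 (-0.24, adjusted p = 0.256) or without vehicle day 3 replicate 3 (-0.38), 4 (-0.46) or 6 (-0.43). The fit with the block called Pcdhgb1 (-0.71, adjusted p = 0.0430), which stood at -0.61 ± 0.27 (adjusted p = 0.0618) without the block.

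At day 6, 7 gamma genes and 0 beta genes fell, where 24.3% of all genes did. At day 9, 3 of the 30 rose and 1 fell, against 14.1% and 14.4% of all genes. The day 9 values of Pcdhb20 (0.42 ± 0.15, adjusted p = 0.0413), Pcdhb22 (0.31 ± 0.09, adjusted p = 0.0130) and Pcdhga4 (-0.42 ± 0.14, adjusted p = 0.0262) were small. The first was lost with the block (adjusted p = 0.0517) and without replicate 3, 4 or 6 of either day 9 group (0.36 to 0.44). The last was lost without vehicle day 9 replicate 3 (-0.33, adjusted p = 0.110), corticosterone day 9 replicate 4 (-0.40, adjusted p = 0.0582) or replicate 6 (-0.38, adjusted p = 0.0780). For the beta genes the change at day 9 was above that at day 3 in 6 of 9 by the test of the difference, with a median difference of 0.69, and 19.8% of all genes passed that test in that direction. Without corticosterone day 3 replicate 4 it was 4 of 9, with a median difference of 0.47, against 23% of all genes.

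Over time in vehicle, and apart from the hormone, more junction genes rose than fell. From day 0 to day 9, 35 of the 66 genes rose and 12 fell, against 35.9% and 34.6% of all genes, with a median change of 0.36 beside 0.02 over all genes. Of the 35, 17 were clustered protocadherins, whose single values are uncertain; outside the clusters 18 of 36 genes rose and the median was 0.21. The connexins (1 rose, 3 fell, median -0.40) and the other protocadherins (1 rose, 2 fell, median -0.38) had medians below 0. In either direction that is 71.2% of the 66 genes and 70.4% of all genes. The day 9 libraries lay wholly above day 0 for 34 genes and wholly below for 12, against 33.6% and 33% of all genes. From day 0 to day 3 it was 36 and 11, against 36.5% and 32.7%, and from day 0 to day 6 it was 37 and 13, against 36.4% and 33.7%. With quantile normalization the counts were 26 and 14 for day 3 and for day 9. It shifted the median change of all genes by -0.0389 for day 3 and -0.0755 for day 9. The share of all genes that rose or fell under it was not counted, so these counts have no background beside them. Of the 35, 20 rose at least 2-fold (10.8% of all genes did), of which 11 were clustered protocadherins, 2 were cadherins (Cdh1 and Cdh16) and the rest included Cldn2, F11r, Ocln, Tjp3, Dsp and Pkp1. The 5 genes that fell at least 2-fold (4.81% of all genes did) included Cdh2, Cdh3, Gja1 and Pcdh18. The rise of Pkp1 in vehicle (1.15 ± 0.26, adjusted p = 0.000325) and that of Cdh17 (0.81 ± 0.18, adjusted p = 0.000234) were lost with quantile normalization (0.63, adjusted p = 0.0611 and 0.24, adjusted p = 0.212). Time in culture and the start of vehicle cannot be told apart in this comparison, because the day 0 libraries had received neither.

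The comparisons of days share their vehicle groups, so the courses are given side by side rather than correlated. From day 3 to day 6 the corticosterone change differed in 13 of the 66 genes (7 upward, 6 downward), where 9.11% of all genes passed (4.21% and 4.9%). From day 6 to day 9 it differed in 22 (16 upward, 6 downward), where 30.9% of all genes passed (16% and 14.9%). From day 3 to day 9 it differed in 31 (22 upward, 9 downward), where 38.3% of all genes passed (19.8% and 18.5%). Without corticosterone day 3 replicate 4 the day 3 to day 6 counts were again 7 upward and 6 downward (5.52% and 5.51% of all genes), and the day 3 to day 9 counts were 20 and 10 (23% and 20.4%), with Pcdh9 added to the differences of at least 2-fold. The upward differences of at least 2-fold (2.73% of all genes) were those of Cdh17, Cdh6 (2.20 ± 0.12, adjusted p = 3.77e-13), Cdh3, Pcdh18 and Cldn2 (1.17 ± 0.28, adjusted p = 0.00153). The downward ones (4.27% of all genes) were those of Cldn1 (-1.73 ± 0.13, adjusted p = 6.68e-11) and Gja1 (-1.41 ± 0.14, adjusted p = 6.79e-09). At day 9 Cdh1, Cdh6, Cldn2 and Pkp1 were still below vehicle and Gja1 and Pcdh9 above it, while Cdh2, Cdh3 and Cdh17 had passed from below to above.

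Levels can be compared between genes only per length, here as CPM per kilobase of the longest protein-coding transcript, a geometric mean over 4 libraries. In vehicle at day 3 Cdh16 was the highest of the 66 genes, at 252.9 CPM per kilobase, followed by Cdh2 at 70.4 and F11r at 57.4. Cdh1 was at 1.67 and Cdh6 at 14.95, and with corticosterone these were 0.708 and 2.22. Gja1 was at 32.4 at day 0, 4.94 in vehicle at day 3 and 17.5 with corticosterone, the highest connexin in the first and last of these groups. Cldn1 went from 4.25 in vehicle to 15.9 with corticosterone at day 3, beside 22.7 for Cldn4, and Cldn2 from 0.896 to 0.202.

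**Figure D5:**
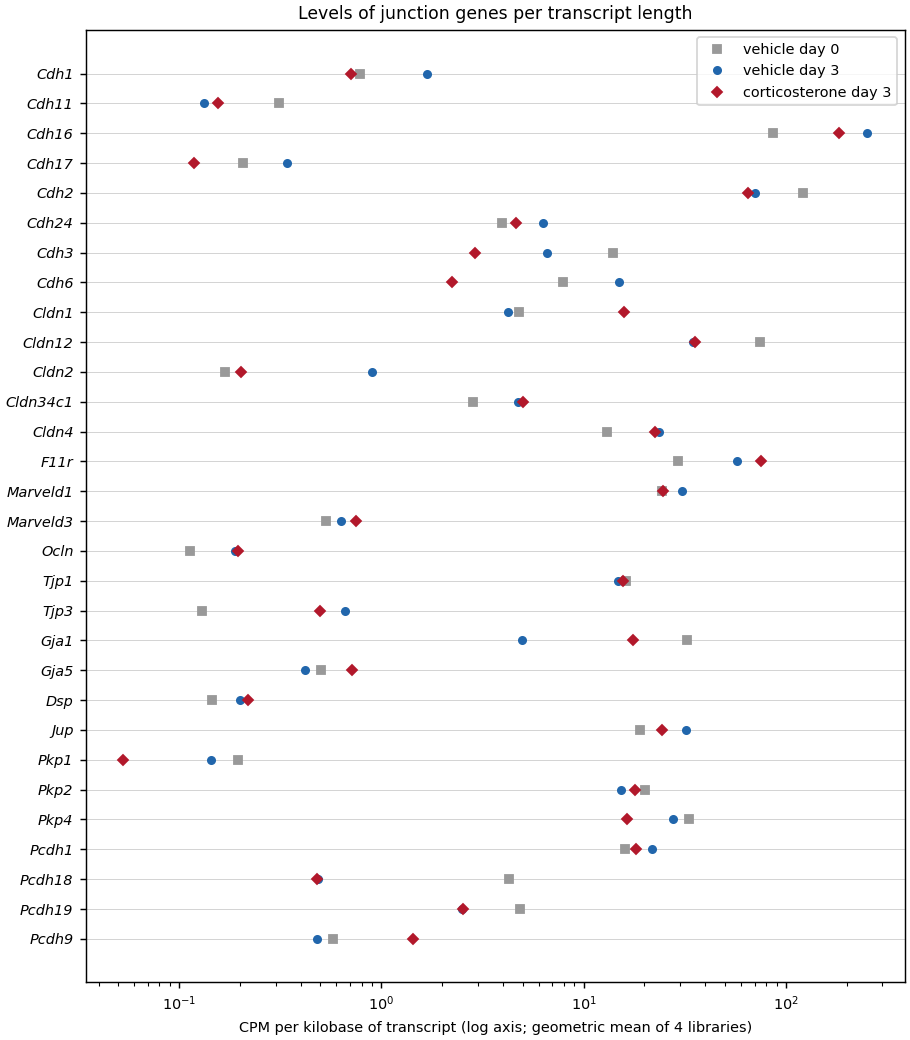
CPM per kilobase of transcript (log axis, geometric mean of 4 libraries) of 30 of the 36 junction genes outside the protocadherin clusters in vehicle day 0 (grey squares), vehicle day 3 (blue circles) and corticosterone day 3 (red diamonds). Cdh16 is the rightmost gene, with 252.9 in vehicle day 3, and Cdh6, Cldn2, Cldn1 and Gja1 show the widest gaps between blue and red.

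The partners of these proteins were examined from lists of adherens junction, tight junction and polarity genes, pannexins, and transcription factors of epithelial and mesenchymal states. Day 3 counts of these lists include corticosterone day 3 replicate 4, and how far they depend on it was not tested. Of 11 adherens junction partners 3 fell and 2 rose at day 3, near the 25.6% and 23.3% of all genes. Ctnnb1, the gene of beta-catenin, was at 8.60 to 8.90 with corticosterone and 9.34 on average with vehicle at day 3 (-0.55 ± 0.06, adjusted p = 2.61e-08). On day 6 its change was -0.33 ± 0.06 (adjusted p = 4.74e-05), and on day 9 it was 0.02 ± 0.06. Ctnna1, alpha-catenin, was at -0.15 ± 0.03, -0.09 ± 0.03 (both called) and 0.05 ± 0.03. Ctnnd1, p120-catenin, was at -0.01 ± 0.09, 0.22 ± 0.09 and 0.02 ± 0.09 (none called; the day 6 change passed with only the 2 groups fitted, adjusted p = 0.0345, and without vehicle day 6 replicate 6, at 0.29, adjusted p = 0.0164). Afdn, afadin, which links nectins to actin, rose by 0.40 ± 0.05 (adjusted p = 1.74e-07) and 0.41 ± 0.05 (adjusted p = 1.31e-07).

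Of 23 tight junction and polarity partners 9 fell and 2 rose at day 3, against 25.6% and 23.3% of all genes. At day 6, 8 fell and 6 rose (24.3% and 22.9% of all genes), and at day 9, 4 fell and 3 rose (14.4% and 14.1%). Cgn, cingulin, which binds zonula occludens proteins, fell on all 3 days (-0.35 ± 0.04, -0.52 ± 0.04 and -0.38 ± 0.04), as did the polarity gene Pard6g (-0.53 ± 0.04, -0.40 ± 0.04 and -0.20 ± 0.04). Pard3, another polarity gene, rose by 0.73 ± 0.08 (adjusted p = 1.25e-08) and 0.38 ± 0.08 (adjusted p = 0.000190) at days 3 and 6. Epcam stood at 1.61, 1.16, 1.33 and 1.80 in the treated libraries of day 9 and at -1.77, -0.56, -1.54 and -1.01 in vehicle (2.69 ± 0.44, adjusted p = 4.31e-05; 1.39 on the log2(CPM + 1) scale). Its changes at days 3 and 6, -0.31 ± 0.44 and 0.44 ± 0.44, were not called. Jam3, a junctional adhesion molecule, was above vehicle by 0.42 ± 0.08 on day 6 and 0.76 ± 0.08 on day 9 (adjusted p = 0.000151 and 1.24e-07). Its vehicle libraries fell from 3.85 to 4.07 at day 3 to 2.90 to 3.17 at day 9. The treated libraries of these days overlapped each other (3.75 to 4.03 and 3.74 to 3.82). Panx1, the 1 pannexin measured, which forms channels in single membranes, fell by -0.56 ± 0.14 (adjusted p = 0.00189) and -0.65 ± 0.14 (adjusted p = 0.000400) at days 3 and 6.

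Of 13 transcription factors of epithelial and mesenchymal states 6 fell and 3 rose at day 3, against 25.6% and 23.3% of all genes. Snai2, the gene of Slug, a repressor of E-cadherin, fell in vehicle from 2.24 on average at day 0 to 0.16 to 0.92 at day 9 (-1.55 ± 0.14, adjusted p = 3.02e-10). With corticosterone it was at 2.03, 2.28, 1.98 and 2.26 at day 3, at 1.87 to 2.29 at day 6 and at 1.52 to 1.71 at day 9, above all vehicle libraries of the day (0.86 ± 0.14, 1.24 ± 0.14 and 0.93 ± 0.14; adjusted p = 1.35e-05, 4.36e-08 and 1.45e-05). The other Snail, Zeb and Twist genes of the list did not share this rise at day 3. Zeb1 (5.20 to 6.01 with corticosterone against 6.05 to 6.25) and Twist2 (2.69 to 3.12 against 3.41 to 3.61) lay wholly below vehicle. Snai1, Zeb2 and Twist1 overlapped it. Klf4, a factor of differentiated epithelium, was below vehicle by -0.97 ± 0.08 (adjusted p = 2.29e-10), -0.81 ± 0.08 (adjusted p = 5.74e-09) and -0.67 ± 0.08 (adjusted p = 6.78e-07). Elf3, an epithelial Ets factor, was above it by 0.92 ± 0.11 (adjusted p = 1.32e-07), 1.08 ± 0.11 (adjusted p = 7.06e-09) and 0.28 ± 0.11 (adjusted p = 0.0666, not called).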

How the data were processed

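RNA from 28 DC2 libraries was prepared as stranded mRNA libraries from 500 ng of RNA, per the labels' protocols. The deposited values are log2 CPM, normalized by the authors per the file's name; the submitters' processing notes name kallisto (no version), edgeR 3.40.1, limma 3.54.0 and mm10 with no role or order, and the prior count and scaling method are not given in the sources used here. Counts were not used here, so the depth of the libraries is unknown and low values carry an error that cannot be stated. An entry without a symbol (0.0267 to 0.0698% of CPM) was left out. No library was a copy of another (root mean square difference at least 0.282 on the log2 scale).

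With limma 3.58.1 in R 4.3.3, group means were fitted to all 28 libraries and 13128 genes (log2 CPM above 0 in at least 4 libraries, which removed 0 genes; 21 residual degrees of freedom; intensity trend), with Benjamini-Hochberg adjustment over all genes in each comparison. Genes are called at adjusted p under 0.05. Fold changes are on the log2 CPM scale and depend, for low genes, on the prior count of the authors. The code was checked on simulated data. Members, lists and tests were chosen with earlier results of these data known. Full statistics were given for members changed at least 2-fold with corticosterone, or in vehicle from day 0 to day 9, and for defining junction genes, save those among 6 genes that enter the counts and whose single values are not reported here; of each partner list, the 2 with the smallest p per day and the catenins and Epcam. Positions and lengths come from GENCODE M21 (GRCm38), which matched all 66 genes. Alternatives, tried 1 at a time, were no filter, log2 CPM above 2, median centring, quantile normalization, log2(CPM + 1), a fit without the trend, one restricted to the groups compared, replicate number as a block, and each library left out in turn; the count of groups that do not overlap without corticosterone day 3 replicate 4 was added after seeing the data.

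Replicate numbers come from the sample titles, which say nothing of a shared batch. Deviations of same-numbered corticosterone and vehicle libraries correlated at 0.110 to 0.156 over 3 pairs at day 6, at -0.03 to 0.07 at day 3 and at 0.03 to 0.17 at day 9, so only the day 6 numbers met the rule that every pair exceed 0.1. Differently numbered libraries at day 6 correlated at -0.249 to 0.229, and 1 of the 3 treated libraries correlated best with its own number. A shared batch is therefore not shown at day 6 either. With the replicate block at day 6, Pcdhb16 was called at -0.36 (adjusted p = 0.0481), against -0.28 (adjusted p = 0.0925) without it.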

Additional observations from a re-analysis of the deposited data

Results flagged for a closer look

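Of 238 groups of 4 libraries checked for the 34 junction genes given in full, 14 held a library whose gap to the nearest of the others took more than 0.829 of the group's range; chance gives about 5% of groups. Corticosterone day 3 replicate 4 was the low library for Gja5 (0.65 log2 CPM, the others 1.58 to 1.71), Pcdhb18 (0.61, the others 1.49 to 1.62) and Pcdhga7 (1.38, the others 1.87 to 1.95). Corticosterone day 6 replicate 6 was low for Cldn1 (5.40, the others 5.86 to 5.93) and Gja1 (3.96, the others 4.51 to 4.58), so that it was nearest to vehicle in both genes. The same library was also the treated one nearest to vehicle at day 6 for Cdh6, Cdh1, Cldn2, Pcdh9 and Gja5, whose gaps did not pass this limit. How widely this holds over other genes was not tested. In corticosterone day 9, replicate 5 was high for Tjp3 (0.34, the others -0.02 to 0.04). In vehicle day 0, replicate 5 was high for Dsp (1.36, the others 0.15 to 0.22) and replicate 4 high for Pcdhb16 (1.87, the others 1.69 to 1.71). In vehicle day 3, replicate 4 was high for Cdh3 (4.99, the others 4.80 to 4.82) and replicate 5 high for Pkp1 (-0.019, the others -0.84 to -0.71). Vehicle replicate 3 was low for Pcdhga4 at day 6 (2.26, the others 2.44 to 2.46) and high for it at day 9 (2.88, the others 2.49 to 2.54). Also in vehicle day 9, replicate 5 was low for Pcdhb19 (1.73, the others 1.94 to 1.95) and replicate 6 low for Jup (6.499, the others 6.71 to 6.75).

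The corticosterone change differed at least 2-fold between days in 10 genes (limma, adjusted p under 0.05 over all genes). By the same rule 2.73% of all genes differed upward and 4.27% downward from day 3 to day 9. For the other intervals the share of all genes was not counted at this rule. Whether the junction genes stand out there is therefore not shown. Between day 3 and day 6 it differed for Gja1, by -1.27 ± 0.14 (adjusted p = 3.62e-07). Between day 6 and day 9 it moved upward for Cdh17 by 1.77 ± 0.25 (adjusted p = 4.27e-06), Cdh3 by 1.42 ± 0.15 (adjusted p = 4.94e-08), Cdh6 by 1.27 ± 0.12 (adjusted p = 1.02e-08) and Cdh1 by 1.18 ± 0.18 (adjusted p = 1.05e-05). In the same interval it moved downward for Pcdh9 by -1.78 ± 0.33 (adjusted p = 0.000140) and Gja5 by -1.18 ± 0.30 (adjusted p = 0.00324). Between day 3 and day 9 the differences were 2.56 for Cdh17, 2.20 for Cdh6, 1.67 for Cdh3, 1.22 for Pcdh18 and 1.17 for Cldn2 upward, and -1.73 for Cldn1 and -1.41 for Gja1 downward.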

How the results depend on the processing

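Of 136 values of the junction genes given in full (34 genes, 3 comparisons with corticosterone and vehicle day 9 against day 0), 81 were called; 11 lost the call and 19 others gained one under at least 1 alternative, and 0 reversed. Median centring and quantile normalization shifted the median change of all genes by -0.0755 to 0.0142. Members with at least 2-fold change at day 9, 2 higher and 3 lower, were 1 and 0 with log2 CPM above 2 and 0 and 0 with log2(CPM + 1); leaving out 1 library gave 1 to 2 higher (1 without vehicle day 9 replicate 3 or 4) and 2 to 4 lower. With log2 CPM above 2, where fewer genes are tested, members higher in vehicle than at day 0 were 22 at each of days 3, 6 and 9, against 36, 37 and 35. Members whose change fell from day 3 to day 6 were 3 with only the groups compared, against 6; the cause was not tested. Among the partners, the vehicle changes from day 0 to day 9 of Afdn (-0.16) and Ctnna1 (-0.19) reversed with quantile normalization, to 0.022 (adjusted p = 0.718) and 0.0753 (adjusted p = 0.0191); the cause was not tested. With the replicate block, 25 genes fell and 7 rose at day 3, 25 and 9 at day 6, and 12 and 10 at day 9; beside the calls given for Pcdhb16, Pcdhb20, Pcdhb21 and Pcdhgb1 it changed no other call of the genes given in full in these comparisons. Leaving out 1 library at a time gave 21 to 27 falls and 6 to 7 rises at day 3, 21 to 24 and 8 to 10 at day 6, and 9 to 13 and 8 to 13 at day 9. The share of all genes called was not counted under these alternatives, apart from the fit without corticosterone day 3 replicate 4. The depth is unknown, which limits genes near or below 0 log2 CPM most.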

Other observations

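Cdh3 and Cdh1 are neighbours in the genome, a pair picked out after its values were seen. They lie in the same direction on chromosome 8 (GENCODE M21, GRCm38), and in vehicle from day 0 to day 9 Cdh3 fell by 1.90 on the log2 scale while Cdh1 rose by 2.05. With corticosterone both were below vehicle at day 3 (-1.18 and -1.24), and at day 9 Cdh3 was above it (0.49) and Cdh1 below it (-0.45).

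Marker sums of other cell types moved with the hormone beyond day 3. Leukocyte markers (Cd68 and Csf1r, nearly all of it Cd68) summed to 49.1 to 57.6 CPM in vehicle and 10.3 to 13.8 with corticosterone at day 6, and to 87.6 to 108 and 45.7 to 50.8 at day 9. Csf1r itself overlapped at day 6 and was higher with corticosterone at day 9 (-0.35 to -0.15 log2 CPM against -1.13 to -0.72). Epithelial markers at day 9 summed to 44.1 to 49.6 CPM in vehicle and 41.8 to 52.4 with corticosterone. Among them Epcam, Krt7 and Krt8 lay wholly above vehicle and Cdh1 wholly below. Fibroblast marker sums overlapped between the treatments at days 6 and 9. On both days Dcn lay wholly above vehicle (5.56 to 5.77 log2 CPM against 4.30 to 4.56 at day 6). Pdgfrb (4.00 to 4.18 against 5.30 to 5.43 at day 6) and Col1a1 (0.82 to 1.95 against 3.16 to 3.27) lay wholly below it. Pdgfra was above at day 6 only, and Col1a2 overlapped. Endothelial markers were at 5.82 to 12.5 CPM with corticosterone and 1.69 to 2.24 with vehicle at day 6, and at 1.79 to 2.67 and 0.9746 to 2.78 at day 9.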
